A study of Mus musculus with 16 samples.

Results

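The comparison described here is that of Jag1 mutant with wild-type pulmonary valve in mouse embryos at stage E14.5. It uses the 8 pulmonary valve libraries of a series of 16 libraries, 4 from each genotype, and the genes with a normalised count of at least 1 in at least 4 of the 8. That rule kept 13681 of the 13964 genes in the deposited table. Wild-type embryos were compared with Jag1flox;Nkx2.5-Cre embryos, both on a C57BL/6 background, and the other 8 libraries hold the aortic valve of the same genotypes. Nkx2.5-Cre deletes floxed sequence in cells in which the cardiac gene Nkx2-5 has been active, so the allele stays intact in other cells. The mutants carry Cre as well as the floxed Jag1 allele, and the controls are labelled only as wild type, so Cre and Jag1 loss cannot be told apart. The valves were cut out by laser microdissection. The sources used here do not say how the cut regions were picked. All 8 libraries belong to library batch 2, and each wild-type library shares a litter with the mutant library of its number, so 4 litter pairs can be formed. The litters are JNC10, JND7, JND8 and JGH66 for pairs 1 to 4.

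Jag1 is a membrane-bound ligand of the Notch receptors. When it binds a receptor on a neighbouring cell, the receptor is cut and its intracellular part enters the nucleus, where it joins the DNA-binding protein Rbpj and switches on genes such as the Hey and Hes repressors. In the outflow valves the endocardium, the sheet of endothelial cells that lines the heart, covers cushions of mesenchyme that are thinned into leaflets, and Notch signals pass within the endocardium and from it to the mesenchyme. In people, JAG1 mutations cause Alagille syndrome, in which narrowing of the pulmonary valve and arteries is common.

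Recovered reads (M, megareads) ranged from 4.56 to 7.49 M in wild-type and from 7.27 to 8.27 M in mutant pulmonary libraries, so the wild-type group was the shallower one. The valve markers were abundant in the 8 libraries. Vcan, a matrix proteoglycan of the cushions, had a normalised count of 449 to 4491, and the mesenchymal gene Postn 325 to 3062. Markers of other tissues differed between libraries, as the plot of cell type marker lists shows. Over 18 skeletal muscle markers the mean log2 level was 0.90 in wild-type library 2, 0.72 in wild-type library 4 and 0.54 in mutant library 4, against 4.78 to 5.43 in the other 5 libraries. The muscle light chain Mylpf was accordingly 0.734 to 7.16 in the former and 341 to 485 in the latter, and the muscle regulator Myog was at 0 in all 3 libraries of the former set. Litter pair 2 therefore sets a wild-type library almost without skeletal muscle against a mutant library that holds it. Pairs 1, 3 and 4 are matched in skeletal muscle, though not in the other respects given next. Library 1 of both genotypes had less valve mesenchyme, at a mean log2 level of 5.46 and 5.44 against 6.61 to 6.99 in the other libraries. Wild-type library 1 had the highest level of 12 erythroid markers, 9.45 against 5.75 to 7.35, and mutant library 1 the highest level of 16 neuronal markers, 5.55 against 2.21 to 3.72. Xist is expressed from the inactive X chromosome of females. It was 1.07 and 1.84 in wild-type libraries 2 and 4 and 1.99 in mutant library 1, against 637 to 1395 elsewhere. Sex is therefore mixed within both groups and differs within pairs 1, 2 and 4.

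**Figure D1:**
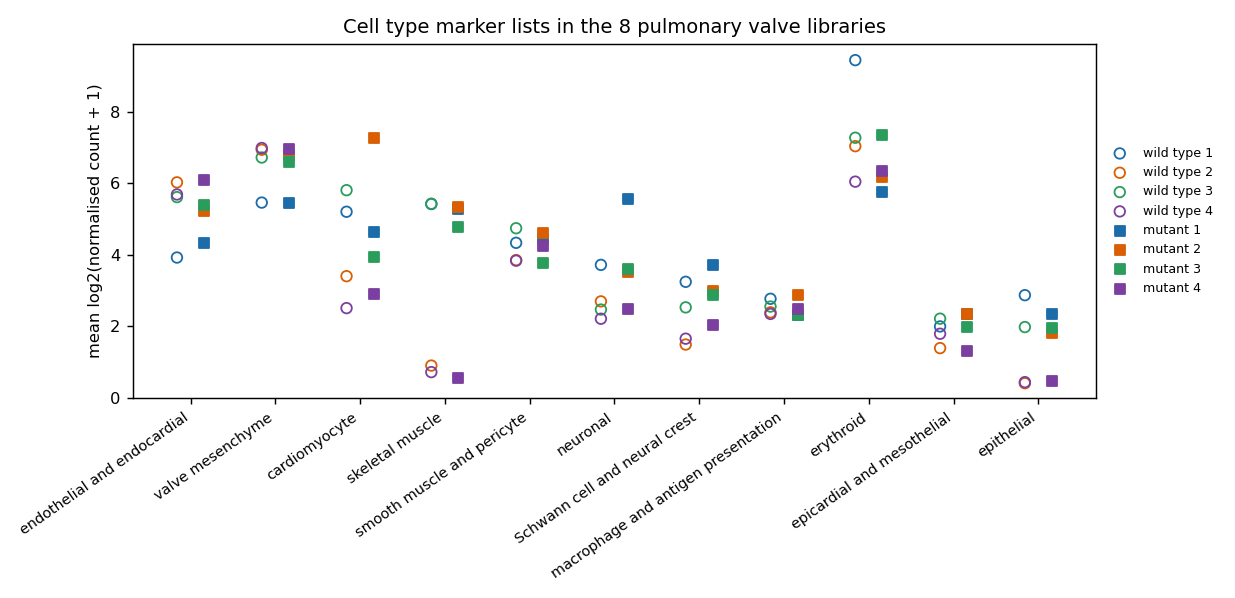
Mean log2(normalised count + 1) of the tested members of 11 cell type marker lists (y axis), for each pulmonary valve library; open circles are wild type, filled squares mutant, and a colour marks a litter pair. Skeletal muscle markers split the libraries into 5 at 4.78 to 5.43 and 3 at 0.54 to 0.90, and the split runs across genotypes.

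Jag1 was lower in mutant pulmonary valve. Its normalised count was 13.6, 19.2, 25.7 and 15.4 in wild-type libraries 1 to 4 and 12.4, 4.70, 3.78 and 1.85 in mutant libraries 1 to 4. Every mutant library lay below every wild-type library, but mutant library 1 came close to wild-type library 1, the library from the same litter. The means were 18.5 ± 5.34 and 5.68 ± 4.63 (SD, n = 4 each), a log2 difference of -1.74 with an SE of 0.49. An exact two-sided permutation test over the 70 assignments of libraries gave p = 0.0286, the smallest that these assignments allow. With genotypes exchanged only within litters there are 16 assignments and the exact p was 0.125, the smallest that those allow, so a test within litters cannot pass 0.05. The gene lies at chr2:137081456-137116644 (GRCm38) on the minus strand and codes for a protein. In bulk tissue, fewer cells that express a gene and less RNA per cell cannot be told apart, and this holds for every difference given here. The labels name litters but not embryos, so p-values measure the spread between these libraries.

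No gene passed the test across the transcriptome. With limma and Benjamini-Hochberg adjustment over 13681 genes, 0 genes were called at an adjusted p below 0.05, which is 0% of those tested, and the smallest adjusted p was 0.9999. At an unadjusted limma p below 0.05 there were 377 genes, 197 higher and 180 lower in mutants. That is less than a share of 0.05 of the 13681 genes, the share that this limit gives where no gene differs. With edgeR on recovered reads 0 genes were called and 341 had an unadjusted p below 0.05, and with DESeq2 there were 2 calls and 392 such genes. Jag1 itself had a limma p of 0.00428 before and 0.9999 after adjustment. The differences below are therefore values with their errors, and apart from the 2 DESeq2 calls, Slain1 and Apoo-ps, none of the genes below passed a test across all genes with 4 against 4 libraries. As a background for the counts that follow, 50.7% of all tested genes had a log2 difference above 0. The mutant libraries lay entirely above the wild-type libraries for 0.899% of genes and entirely below them for 1.06%. All 4 litter pairs were higher in the mutant for 6.61% and lower for 6.98%.

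Among the Notch ligands and receptors, Jag1 was the 1 gene of 8 tested whose groups did not overlap, and 5 of the 8 had a difference above 0, or 2 of 8 without wild-type library 1. The ligand Jag2 was low throughout, at 1.07 to 2.78 in wild type against 0.494 to 5.18 in mutants. Dll1, another ligand, ran from 0 to 16.2 in wild type and from 5.14 to 12.5 in mutants, so the groups overlapped. Notch1, the main receptor of the endocardium, was 38.4, 233, 136 and 195 in wild-type libraries and 44.8, 150, 131 and 291 in mutants. Its log2 difference was 0.03 with an SE of 0.60, and in both genotypes library 1 was the lowest. Notch2, another receptor, was 56.0 to 221 in wild type against 73.3 to 183 in mutants, with a difference of -0.40 and an SE of 0.43. Notch3 and Notch4 also overlapped between the genotypes, with differences of -0.40 (SE 0.56) and 0.16 (SE 0.57).

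Of the genes that Notch signalling is known to switch on, 6 of 9 had a difference below 0, and 3 of the 9 were lower in all 4 litter pairs. Heyl, a Hey-family repressor, was 49.6, 69.0, 73.0 and 56.5 in wild-type libraries and 47.0, 48.6, 37.2 and 28.9 in mutants. The groups did not overlap, and its log2 difference was -0.62 with an SE of 0.26. Pair 1 contributed little, with 49.6 against 47.0. Hey1, a related repressor, was 67.0, 63.3, 35.2 and 28.5 in wild type against 51.7, 21.5, 28.1 and 20.0 in mutants. It was lower in all 4 pairs although the groups overlapped, and its difference was -0.67 with an SE of 0.38. Bhlhe40, a repressor that also responds to hypoxia, was the other target lower in all 4 pairs, with a difference of -0.43 (SE 0.30). The remaining targets did not share that pattern. Hey2 ran from 13.3 to 83.1 in wild type and from 23.7 to 88.7 in mutants, and Hes1 from 10.3 to 28.3 and from 14.3 to 30.8. Nrarp, a feedback inhibitor of the pathway, was lower in mutants in pairs 2, 3 and 4 and higher in pair 1, with a difference of -0.51 and an SE of 0.58. Efnb2, an arterial ephrin, was higher in 3 pairs with a difference of 0.47 and an SE of 0.40. The median of the Notch targets was -0.09. It was -0.49 without wild-type library 1, 0.02 without wild-type library 3 and 0.04 among muscle-containing libraries, so its sign was not stable.

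Of the 27 tested genes of the Notch machinery, 13 had a difference above 0. Rbpj, the DNA-binding partner of the cut receptor, was 127, 77.5, 89.2 and 87.0 in wild type against 154, 138, 122 and 119 in mutants. It was higher in the mutant in all 4 pairs, and only wild-type library 1 reached the mutant range. Its log2 difference was 0.50 with an SE of 0.22. Mib2, a ubiquitin ligase that helps ligands to signal, was lower in all 4 pairs, at 5.56 to 14.0 in wild type against 2.80 to 5.64 in mutants, with a difference of -1.04 and an SE of 0.43. Rfng, a glycosyltransferase that modifies Notch receptors, was higher in all 4 pairs with a difference of 0.72 (SE 0.40), and so were the gamma-secretase genes Aph1a and Psen2.

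Members of the valve transcription factor list were chosen with earlier results of these data known, so a member's difference is no separate evidence. Among the 32 tested, Lmcd1, a LIM-domain cofactor that binds GATA6, was the 1 gene whose groups did not overlap. Its normalised count was 34.1, 37.0, 32.2 and 60.7 in wild-type libraries and 17.4, 28.5, 19.5 and 19.5 in mutants. The groups did not overlap, all 4 pairs were lower in the mutant, and the log2 difference was -0.90 with an SE of 0.30. Of the other valve regulators, Tbx20 was lower in all 4 pairs with an SE larger than its difference (-0.49, SE 0.86), and Nfatc1, the regulator of valve endocardium, differed by 0.08 with an SE of 0.52. The mesenchymal homeobox gene Prrx1 was higher in all 4 pairs by 0.23 (SE 0.23). Over the list of Valve transcription factors, 22 of 32 had a difference above 0 with a median of 0.09. Without wild-type library 1 the count was 11 of 32 and the median -0.19. It was 26 of 32 with a median of 0.29 without mutant library 1. Among muscle-containing libraries it was 29 of 32 with a median of 0.35.

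**Figure D2:**
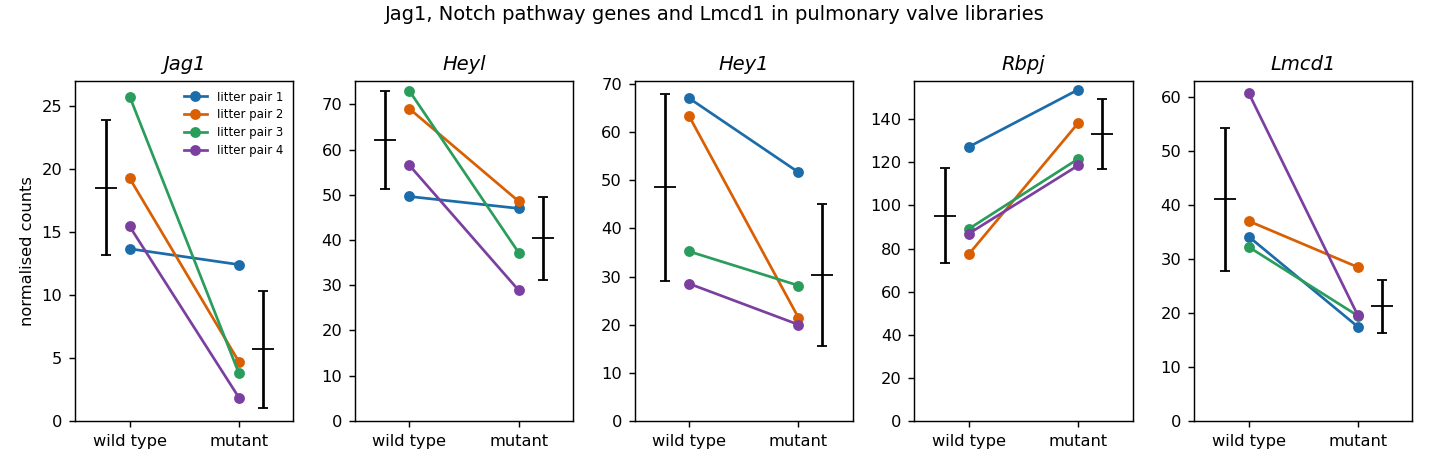
Normalised counts (y axis) of Jag1, Heyl, Hey1, Rbpj and Lmcd1 in each pulmonary valve library, joined by litter pair, with the mean and SD of each genotype beside the points (n = 4). Jag1, Heyl and Lmcd1 had no overlap between genotypes; litter pair 1 shows almost no difference in Jag1 (13.6 against 12.4) and Heyl (49.6 against 47.0).

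The 12 named genes that were higher in mutants had log2 differences of 0.81 to 2.59, no overlap between groups and 4 of 4 pairs in one direction. Those were the conditions by which they were picked, so their agreement over libraries is no separate evidence. Predicted genes, pseudogenes and the like left aside, 10 of the 12 had a wild-type mean below 10, so most of them are low genes. Slain1, which promotes microtubule growth, was at 0 in all 4 wild-type libraries and at 7.25, 5.23, 6.30 and 2.47 in mutants. The wild-type libraries held 0 reads and the mutants 62, 39, 45 and 20, a total of 166, at least 46.1-fold higher against a floor of 3 reads over the wild-type group. Its limma difference was 2.59 with an SE of 0.46, and DESeq2 called it at an adjusted p of 0.000683. In the aortic valve Slain1 was found in all 4 wild-type libraries, at 0.526 to 3.85, and in 3 of 4 mutant libraries, at 0 to 9.41. Apoo-ps, a pseudogene chosen after its values were seen, was the other DESeq2 call, at an adjusted p of 0.00171. It had 0 wild-type reads and 27, 51, 27 and 34 mutant reads, at least 38.6-fold higher against the same floor. In the aortic valve Apoo-ps was 6.11, 0, 1.63 and 0 in wild type against 7.43, 1.88, 0 and 2.28 in mutants. Its parent gene Apoo was 9.35 to 31.0 in wild type and 5.32 to 14.0 in mutants. Whether reads shared between gene copies, or sequence differences between the embryos that change which reads align, contribute to the Slain1 and Apoo-ps values was not tested.

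Of the other higher genes, several are known chiefly from neurons. Nmnat2, the NAD-synthesising enzyme of axons, was 3.41, 2.80, 6.25 and 8.56 in wild type against 45.5, 11.9, 20.4 and 15.8 in mutants, with a log2 difference of 1.88 and an SE of 0.49. Nyap2, a phosphoinositide 3-kinase adaptor of neurons, was at 0 in wild-type libraries 2 to 4 and at 1.02 in library 1, against 19.2, 2.42, 3.08 and 2.10 in mutants. Anks1b, a postsynaptic scaffold protein, was 0 to 2.05 in wild type against 2.22 to 14.498 in mutants. Cadps2, which primes secretory vesicles, was 0.341 to 1.84 and 2.96 to 10.3, and Frrs1l, an accessory protein of glutamate receptors, 0.801 to 3.07 and 5.93 to 15.8. Mutant library 1, the one with most neuronal marker RNA, was the highest mutant for 7 of the 12 genes. Without it the difference was 1.52 for Nmnat2 and 1.56, in place of 2.19, for Nyap2.

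The neuronal markers themselves were 14 of 16 above 0, with a median of 0.86, and 6 of 16 were higher in all 4 pairs. The pair medians were 1.74, 0.42, 0.60 and 0.04, so pair 1 was the largest and pair 4 showed almost no difference. Elavl3, an RNA-binding protein of neurons, was 5.80, 0, 0.927 and 0.245 in wild type against 58.1, 5.64, 12.3 and 0.247 in mutants. The tubulin gene Tubb3 was 120 in mutant library 1 and 9.52 to 30.0 in the other 7 libraries, and the growth-cone gene Gap43 was 177 against 20.7 to 58.0. The median of the neuronal markers was 0.42 without mutant library 1. In the aortic valve it was 0.86 as well. What part neuronal RNA had in the higher genes was not tested. Schwann cell and neural crest markers were 7 of 10 above 0 with a median of 0.42, which was -0.07 without wild-type library 2. Tfap2b, a neural crest transcription factor, was at 0 in wild-type libraries 2 to 4 and in mutant library 4, and at 15.3 to 45.7 in the other mutants. These values leave out wild-type library 1. That library had the highest mean log2 level of Schwann cell and neural crest markers among wild-type libraries, 3.25 against 1.49 to 2.53.

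Outside this neuronal set, Cnrip1, a protein that binds the cannabinoid receptor, was 11.6, 9.21, 10.4 and 11.6 in wild type against 25.3, 36.9, 16.7 and 28.04 in mutants. The wild-type libraries were tightly grouped, and the difference was 1.195 with an SE of 0.34. Megf10, a receptor for engulfment that is also found on muscle precursors, was 1.88 to 4.40 in wild type against 6.30 to 16.8 in mutants. Moap1, a pro-apoptotic protein that binds Bax, was at 0 in wild-type libraries 1, 2 and 4 and at 1.39 in library 3, against 2.72 to 12.3 in mutants. Susd4, a regulator of complement, was 0 to 1.02 and 2.55 to 7.13. The other 2 of the 12, Pgam1 and Ankrd37, belong to the glycolysis and hypoxia lists below.

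The 12 named genes that were lower in mutants, picked in the same way, had differences of -0.67 to -2.14 on the log2 scale. Slc7a5, the transporter of large neutral amino acids, was 42.8, 41.0, 38.0 and 37.8 in wild type against 13.8, 15.0, 11.9 and 24.9 in mutants. The wild-type libraries lay close together, and mutant library 4 was the nearest to them. The means were 39.9 ± 2.43 and 16.4 ± 5.83 (SD, n = 4 each), a log2 difference of -1.28 with an SE of 0.30. C5ar1, the receptor for complement fragment C5a on myeloid cells, was 4.26, 2.80, 9.27 and 2.20 in wild type against 0, 0, 0.280 and 0.371 in mutants. Pyroxd1, an oxidoreductase, was 28.7 to 40.5 in wild type against 13.6 to 18.5 in mutants, with a difference of -1.07 and an SE of 0.28. All 4 mutant libraries again lay below the wild-type range, as the pick required.

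Gen1, the nuclease that resolves crossed DNA strands in recombination, was 41.1, 36.2, 32.0 and 19.8 in wild type against 15.2, 12.6, 14.6 and 9.02 in mutants. Its log2 difference was -1.24 with an SE of 0.34. Cdca5, which holds sister chromatids together, was 37.2, 35.1, 25.02 and 19.2 in wild type against 16.1, 6.84, 15.96 and 12.7 in mutants. Brd8, a bromodomain protein of a histone acetyltransferase complex, was the most abundant of the 12, at 95.4 to 132 in wild type against 53.9 to 77.8 in mutants. Eif1ad, which carries a domain of a translation factor, was 41.5 to 64.0 and 20.9 to 39.4. For each of these 4 genes the groups did not overlap, which was a condition of the pick.

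Adamts6, a secreted matrix protease known from outflow tract development, was 19.3, 35.1, 33.4 and 27.9 in wild type against 15.9, 14.2, 10.6 and 14.3 in mutants. The difference was -0.996 with an SE of 0.32, and wild-type library 1 was the nearest to the mutants. Dzip1l, a protein of the base of the cilium, was 11.3 to 29.5 and 3.49 to 9.88, a difference of -1.55 with an SE of 0.43. Dram1, a lysosomal protein of autophagy, was 9.21 to 19.9 in wild type against 1.17, 7.25, 0 and 4.82 in mutants. The mucin Muc6 was 12.5 to 22.7 and 1.64 to 9.13, and the protease-family gene Adam1a 1.16 to 4.44 and 0 to 0.494.

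**Figure D3:**
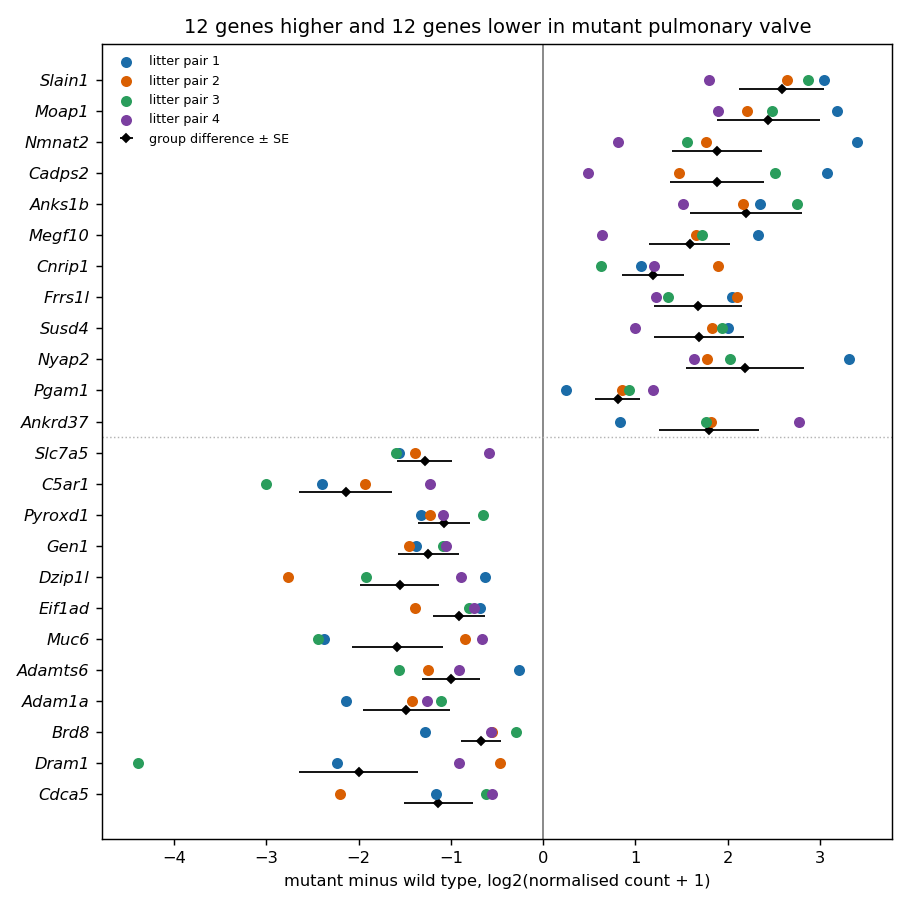
Difference between mutant and wild type in log2(normalised count + 1) (x axis) for the 12 higher and 12 lower genes, one coloured point for each litter pair; the black diamond is the difference between group means with its SE. All 4 pairs lie on the same side of 0 because the genes were picked that way. Among the 12 higher genes, litter pair 1 is the farthest right for Slain1, Moap1, Nmnat2, Cadps2, Megf10, Susd4 and Nyap2.

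Glycolytic enzymes were mostly above 0 in the mutant minus wild-type difference. Of 24 tested genes 23 had a difference above 0, the exception being Hk1, and 6 were higher in all 4 pairs. The median log2 difference was 0.43, against 0.01 for all genes, and none of the 24 passed the test. The list's mean level was 5.43, 4.72, 4.99 and 4.91 in wild-type libraries 1 to 4 and 5.55, 5.76, 5.39 and 5.34 in mutants. Wild-type library 1 reached the mutant range. The pair medians were 0.05, 1.00, 0.39 and 0.45, and the median of the Glycolytic enzymes was 0.28 without pair 2, in which the muscle content differs, and 0.27 among muscle-containing libraries alone. In the aortic valve the median was 0.01.

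Glycolysis genes are classic targets of the hypoxia-inducible factor, which binds DNA at the core letters ACGTG. The promoters of 4 genes of the glycolysis and hypoxia lists that were higher in mutants are shown for that reason, as RefSeq gives them for GRCm38.p6, from 250 bases before to 50 after the gene's start. They are at chr19:41911621-41911920 on the plus strand (Pgam1), chr8:45999801-46000100 on the minus strand (Ankrd37), chrX:106186850-106187149 on the plus strand (Pgk1) and chr7:138909457-138909756 on the minus strand (Bnip3). Capitals mark ACGTG or its reverse CACGT; in Bnip3 both overlap in CACGTG.
Pgam1: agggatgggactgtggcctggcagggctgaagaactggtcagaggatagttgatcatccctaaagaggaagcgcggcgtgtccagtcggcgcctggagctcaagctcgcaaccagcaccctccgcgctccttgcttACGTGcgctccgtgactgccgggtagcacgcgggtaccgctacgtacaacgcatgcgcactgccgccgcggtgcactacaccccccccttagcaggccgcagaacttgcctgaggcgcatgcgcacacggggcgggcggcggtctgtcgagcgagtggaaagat
Ankrd37: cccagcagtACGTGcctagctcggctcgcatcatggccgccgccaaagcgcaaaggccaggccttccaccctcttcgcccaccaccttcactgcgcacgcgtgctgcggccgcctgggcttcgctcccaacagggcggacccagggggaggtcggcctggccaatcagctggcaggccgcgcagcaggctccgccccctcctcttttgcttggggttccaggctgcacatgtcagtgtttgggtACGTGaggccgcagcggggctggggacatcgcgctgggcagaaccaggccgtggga
Pgk1: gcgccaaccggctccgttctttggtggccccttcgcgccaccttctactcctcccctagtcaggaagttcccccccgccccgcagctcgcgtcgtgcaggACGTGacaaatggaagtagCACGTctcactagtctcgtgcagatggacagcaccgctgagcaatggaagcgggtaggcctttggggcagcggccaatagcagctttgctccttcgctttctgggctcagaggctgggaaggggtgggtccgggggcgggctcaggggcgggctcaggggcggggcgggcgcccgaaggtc
Bnip3: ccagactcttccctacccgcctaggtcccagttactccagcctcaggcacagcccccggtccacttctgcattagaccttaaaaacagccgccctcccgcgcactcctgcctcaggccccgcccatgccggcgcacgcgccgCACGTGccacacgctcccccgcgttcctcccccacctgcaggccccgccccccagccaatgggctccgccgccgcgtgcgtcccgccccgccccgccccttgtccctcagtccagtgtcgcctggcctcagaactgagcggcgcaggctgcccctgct
The motif was searched on both strands, and a palindromic CACGTG counts once on each strand. It was in 17 of 35 promoter windows of 23 glycolytic genes (48.6%), in 16 of 27 windows of 20 hypoxia-induced genes (59.3%) and in 19.6% of all 32851 windows of that length. The lists were made of genes of glycolysis and hypoxia, among them known targets of the factor. The background was all windows, not those of the tested genes. The shares therefore describe the lists and carry no information on the difference between genotypes. A match describes the letters in the window and does not show that a factor binds there.

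Pgam1, the mutase of lower glycolysis, was 49.5, 50.7, 44.0 and 34.3 in wild type against 58.8, 92.7, 85.1 and 79.5 in mutants. The groups did not overlap, as its pick required, and the log2 difference was 0.81 with an SE of 0.24. Pgk1, the kinase one step before it, was 231, 128, 148 and 132 in wild type against 284, 332, 252 and 175 in mutants. All 4 pairs were higher, while wild-type library 1 lay within the mutant range, with a difference of 0.71 and an SE of 0.26. Ldhb, a lactate dehydrogenase subunit, was 38.1 to 60.9 and 60.3 to 77.6, higher in all 4 pairs. Aldoc, an aldolase, was at 0 in wild-type libraries 2 to 4 and at 5.63 in library 1, against 1.68 to 18.0 in mutants.

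The hypoxia-induced list was less even, with 17 of 25 genes above 0 and a median of 0.16. Ankrd37, a small ankyrin protein known as a hypoxia target, was 1.54, 0.801, 3.24 and 0.245 in wild type against 3.51, 5.37, 13.4 and 7.53 in mutants. Its difference was 1.799 with an SE of 0.54. Bnip3, a mitochondrial protein of mitophagy, was 46.2, 9.08, 13.7 and 9.54 in wild type against 34.8, 50.3, 39.3 and 29.4 in mutants. Pair 1 was lower and the other 3 pairs higher in the mutant, and the difference was 1.23 with an SE of 0.46. Vegfa, the vascular growth factor, was higher in all 4 pairs by a small amount, 0.25 with an SE of 0.33. The glucose transporter Slc2a1 differed by 0.08 (SE 0.45) and Egln3 by 0.36 (SE 0.77). Arnt, the partner subunit of the hypoxia-inducible factor, was lower in all 4 pairs, at 106 to 146 in wild type against 68.5 to 118 in mutants.

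Among 31 proteoglycan, hyaluronan and matricellular genes, which fill the cushions with hydrated matrix, 22 had a difference below 0 and 10 were lower in all 4 pairs. None passed the test. The median was -0.33, and the pair medians were -0.36, -0.28, -0.41 and -0.31. The genes lower in every pair included Vcan, Postn, Has2, Dcn, Bgn, Lum, Thbs1, Thbs2 and Sparc. Vcan was 632, 3290, 3281 and 4491 in wild type against 449, 2399, 1678 and 3464 in mutants. Its group difference was -0.57 with an SE of 0.68, and library 1 of both genotypes was far below the others. Has2, the main hyaluronan synthase of the cushions, was 22.2, 94.2, 104 and 153 in wild type against 17.0, 76.2, 39.2 and 103 in mutants. Postn was 417, 2992, 2122 and 3062 in wild type against 325, 1692, 1115 and 2459 in mutants. Prelp, a small leucine-rich proteoglycan, had the smallest p of the list, at 44.4 to 68.6 in wild type against 19.9 to 47.1 in mutants, with a difference of -0.83 and an SE of 0.31. The median of the Proteoglycans, hyaluronan and matricellular genes depended on which libraries were set against each other. It was -0.66 without wild-type library 1, 0.07 without mutant library 1 and 0.02 among muscle-containing libraries. In the aortic valve it was 0.26. Markers of valve mesenchyme had pair medians of -0.06, -0.30, -0.16 and -0.13, and their part in the matrix values was not tested.

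The other matrix lists had medians of the same sign. Of 17 elastic fibre genes 11 were below 0 and 5 were lower in all 4 pairs, namely Loxl1, Fbln2, Fbn1, Fbn2 and Loxl2. Loxl1, which cross-links elastin, was 22.5 to 88.3 in wild type against 11.6 to 58.1 in mutants. The median of -0.24 became 0.28 without mutant library 1 and -0.76 without wild-type library 1. Of 29 collagens 18 were below 0 and 5 were lower in all 4 pairs, with a median of -0.28, which was 0.02 without mutant library 1. Col25a1, a membrane collagen, was 23.9, 15.2, 7.64 and 13.2 in wild type against 8.65, 5.23, 2.66 and 3.58 in mutants, a difference of -1.40 with an SE of 0.47. Col1a1, the bulk fibrillar collagen, differed by -0.28 with an SE of 0.27. Of 24 matrix proteases and inhibitors 17 were below 0, with a median of -0.28 and pair medians of 0.29, -0.60, -0.60 and -0.06. That median was 0.08 without mutant library 1 and -0.79 without wild-type library 1. Of 21 TGF-beta pathway genes 17 were below 0 with a median of -0.20, which was 0.06 without mutant library 1 and -0.63 without wild-type library 1.

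Genes of mitosis and replication were mostly below 0, and the medians rested on wild-type library 1. Of 41 mitosis genes 37 were below 0 and 6 were lower in all 4 pairs. Their median was -0.23, the pair medians were -0.99, -0.00, 0.20 and -0.10, and the median of the Mitosis genes was 0.02 without wild-type library 1. That library had a mean level of 6.90 against 5.90 to 6.21 in the other 7. Mki67, the marker of cycling cells, was 2012 in it and 465 to 818 elsewhere. The same library held the most erythroid RNA, with the globin gene Hbb-bs at 16659 against 868 to 3594, and the part of its blood cells in these values was not tested. Cenpe, the kinetochore motor, was nonetheless apart between groups, at 205, 183, 144 and 145 in wild type against 103, 127, 97.1 and 121 in mutants. Prc1, which bundles spindle microtubules, was 81.5 to 136 and 57.4 to 74.9. Of 35 replication genes 27 were below 0, and the median of -0.18 for the Replication and MCM genes was 0.00 without wild-type library 1. Mcm6, a helicase subunit, was 113 to 202 in wild type against 76.6 to 109 in mutants, so the groups were apart. Ccnf, a cyclin that targets proteins for destruction, was 58.3, 51.3, 36.1 and 27.2 in wild type against 16.5, 25.5, 16.8 and 25.9 in mutants.

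Homologous recombination and DNA repair genes were below 0 in 23 of 29 cases, with 7 lower in all 4 pairs and 4 whose groups did not overlap. The pair medians were -0.41, -0.05, -0.20 and -0.32. The median of -0.28 for the Homologous recombination and DNA repair genes was -0.12 without wild-type library 1 and -0.28 among muscle-containing libraries. Without replicate 1 of both groups it was -0.05, with 9 of 29 above 0. Besides Gen1, Xrcc2, a protein of homologous recombination, was 11.1, 17.5, 21.1 and 18.4 in wild type against 8.77, 5.50, 9.80 and 5.56 in mutants. Its difference was -1.10 with an SE of 0.38. Brca2 was 28.7 to 66.0 in wild type against 29.0 to 34.6 in mutants, and the checkpoint kinase Atr was 36.5 to 49.4 and 22.7 to 36.2, with no overlap. Blm, Mus81, Fanci and Atr were among the genes lower in all 4 pairs.

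Amino acid transport and stress-response genes were below 0 in 20 of 28 cases, with a median of -0.17, which was -0.31 without wild-type library 2 and -0.09 without mutant library 4. Beside Slc7a5, Cars, the tRNA synthetase for cysteine, was 28.7, 19.1, 19.7 and 22.1 in wild type against 12.04, 9.66, 11.8 and 11.9 in mutants. All 4 mutant libraries lay below the wild-type range, and the difference was -0.91 with an SE of 0.31. Mthfd2 and Aldh18a1, enzymes of mitochondrial folate and proline synthesis, were lower in all 4 pairs. Vldlr, a lipoprotein receptor in the same list, was higher, at 1.59 to 9.89 in wild type against 10.3 to 19.5 in mutants, with a difference of 1.47 and an SE of 0.49.

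Cytosolic ribosomal protein genes were above 0 in 62 of 65 cases, but only 3 were higher in all 4 pairs. Their median was 0.20 and the pair medians were -0.36, 0.52, 0.43 and 0.26, so pair 1 went the other way. The median of the Cytosolic ribosomal proteins was -0.05 among muscle-containing libraries and 0.42 without wild-type library 1. Rps16 was 205, 97.0, 108 and 89.8 in wild type against 142, 250, 314 and 176 in mutants. Rpl3 was 25.2 in wild-type library 1, 273 to 573 in the other wild-type libraries and 451 to 821 in mutants. Values of ribosomal genes with near-identical copies are uncertain. Nuclear genes of oxidative phosphorylation had a median of 0.09 with 34 of 49 above 0, a median of 0.25 without wild-type library 1 and 24 of 49 above 0 without wild-type library 2, and 15 transcripts of the mitochondrial genome a median of -0.05.

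Signalling pathways that act beside Notch in the valve other than TGF-beta had medians between -0.09 and 0.36, with pair medians of both signs in each list. These medians rested on single libraries. Of 28 BMP pathway genes 18 were above 0, but 11 of 28 without wild-type library 1 and 13 of 28 without mutant library 3. Bambi, a decoy receptor, and the receptor Acvr1 were lower in all 4 pairs, while the effector Smad1 was 38.0 to 92.8 in wild type against 80.0 to 113 in mutants. Of 15 genes of the EGF receptor pathway 9 were above 0, with a median of 0.20 that was 0.03 without wild-type library 1, and Hbegf, the ligand that restrains valve mesenchyme, differed by -0.09 with an SE of 0.57. Of 17 FGF and PDGF pathway genes 11 were above 0 with a median of 0.36, which was 0.14 without wild-type library 2. In that list Etv5 and Fgfr1 were higher in all 4 pairs, and Fgfr2 and Pdgfrb lower, at 94.0 to 273 against 64.7 to 177 and at 21.2 to 138 against 17.2 to 121. Of 38 Wnt pathway genes 21 were above 0 with a median of 0.05, but 12 of 38 without wild-type library 1, with a median of -0.24. The guidance genes had 13 of 32 above 0, and 21 of 32 without mutant library 1. Among them Plxnb1, a semaphorin receptor, was 27.6, 27.9, 23.9 and 30.2 in wild type against 10.1, 15.2, 15.8 and 20.5 in mutants. Its groups were apart, with a difference of -0.83 and an SE of 0.31. Of the immediate-early genes, 10 of 21 were above 0, with a median of -0.15 that was -0.36 without wild-type library 1 and 0.03 without mutant library 1, and Egr2 was 10.1, 23.1, 18.8 and 27.9 in wild type against 1.87, 6.58, 5.04 and 18.3 in mutants. It was lower in all 4 pairs, with a difference of -1.48 and an SE of 0.56. Sterol synthesis and glucocorticoid-responsive genes had medians of -0.06 and 0.05, with ranges of -0.14 to 0.02 and -0.09 to 0.29 when libraries were left out.

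**Figure D4:**
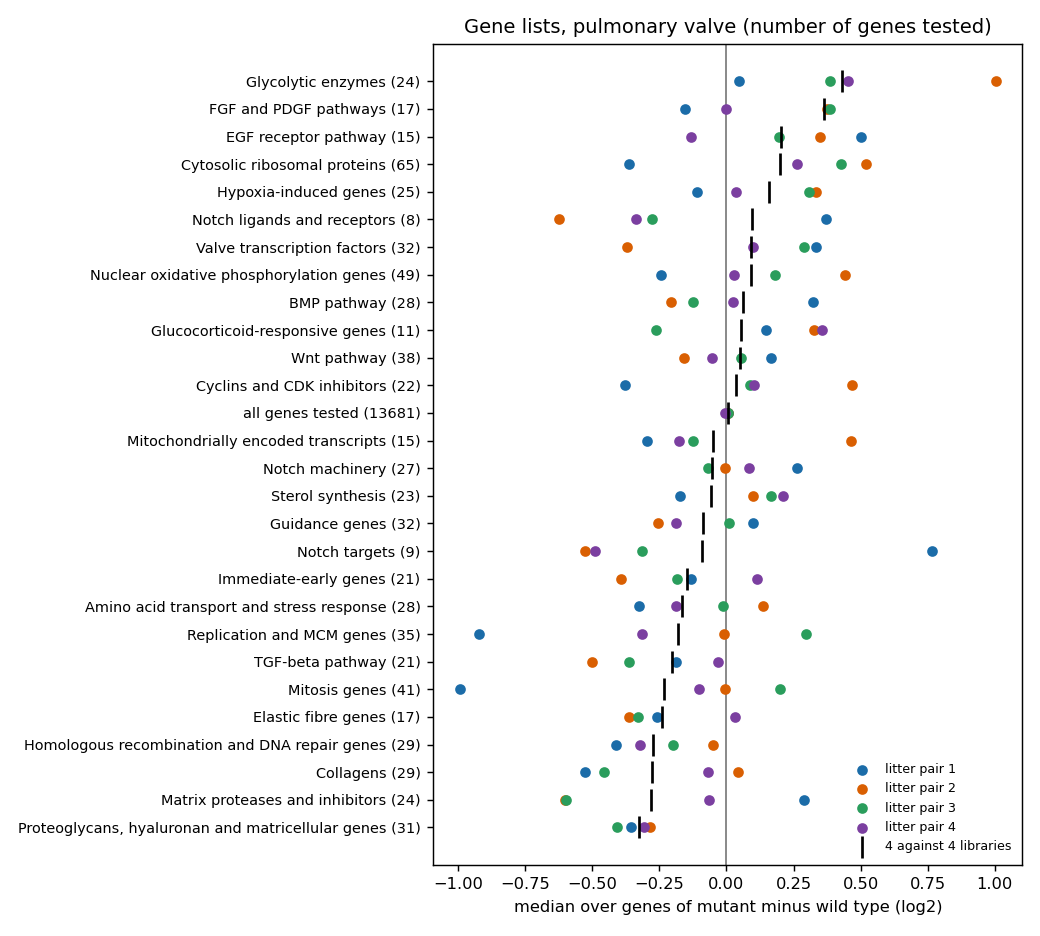
Median over the tested genes of each list of the mutant minus wild-type difference in log2(normalised count + 1) (x axis); coloured points are litter pairs and the black bar is the difference between 4 and 4 libraries. Glycolytic enzymes lie at 0.43 with pairs from 0.05 to 1.00, and the proteoglycan list at -0.33 with pairs from -0.41 to -0.28; neither list holds a gene that passed the test.

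Mean marker levels of the cell types of the valve itself overlapped between the genotypes. Endothelial and endocardial markers were 8 of 20 above 0 with a median of -0.05. Without wild-type library 1 they were 1 of 20 above 0 with a median of -0.63, and without mutant library 1 they were 18 of 20 with a median of 0.28. Cdh5, an adhesion protein of endothelium, differed by -0.00 with an SE of 0.56. Valve mesenchyme markers were 6 of 14 above 0 with a median of -0.03, which was -0.38 without wild-type library 1 and 0.30 without mutant library 1. Macrophage and antigen-presentation markers were 11 of 22 above 0. In that list Cd74, the invariant chain of class II molecules, was 4.78, 1.603, 17.4 and 3.18 in wild type against 1.87, 1.21, 0.560 and 0.247 in mutants. Lyve1 and Mrc1, markers of resident macrophages, were higher, with differences of 1.72 (SE 0.65) and 1.08 (SE 0.49), and Csf1r, a growth factor receptor of macrophages, differed by -0.54 (SE 0.53). The C5ar1 values above therefore stand beside macrophage markers of both signs. Erythroid markers were 2 of 12 above 0 with a median of -1.21, which was -0.46 without wild-type library 1. Skeletal muscle markers were 17 of 18 above 0 with a median of 0.75, or 12 of 18 without wild-type library 2 and 9 of 18 without wild-type library 4, and their pair medians of -0.19, 4.18, -0.56 and -0.16 were above 0 in pair 2 alone. Cardiomyocyte markers, with a median of 0.43, had pair medians of -0.33, 4.33, -1.67 and 0.01.

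The aortic valve gives the same contrast in other libraries, made in library batch 1, which means that batch cannot be told apart from valve. Its litter pairs come from JND8, JND7, JNC10 and JGJ68, so 3 litters gave both valves under partly different numbers, and the model that compares the valves does not take this sharing into account. In a model over all 16 libraries, limma tested the genotype difference in the pulmonary valve minus that in the aortic valve. After Benjamini-Hochberg adjustment 0 genes passed the threshold, which is 0% of 13681. At an unadjusted limma p below 0.05 there were 254 genes, which is also less than a share of 0.05. Jag1 was 33.3 ± 17.1 in wild-type and 9.38 ± 2.39 in mutant aortic valve (SD, n = 4 each), a log2 difference of -1.62 with an SE of 0.45 beside -1.74 in the pulmonary valve. The difference between the valves was -0.12 with an SE of 0.63. Heyl, Hey1 and Lmcd1 were lower in both valves, with aortic differences of -0.71 (SE 0.35), -1.01 (SE 0.37) and -0.97 (SE 0.28). The differences between valves for these 3 genes were 0.09, 0.34 and 0.07, each smaller than its SE.

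The genes named for the pulmonary valve were picked by their pulmonary values, so smaller aortic differences follow from the choice alone. Of the 12 higher genes 9 had the same sign there, and of the 12 lower genes 6. Cnrip1 had the largest ratio of difference to SE between the valves among these genes, with 1.195 in the pulmonary and -0.79 (SE 0.32) in the aortic valve, a difference of 1.98 with an SE of 0.45. Gen1 was -1.24 in the pulmonary and 0.44 (SE 0.34) in the aortic valve, a difference of -1.68 with an SE of 0.49. Slc7a5 had the same sign in the aortic valve, at -0.43 with an SE of 0.34. None of the 24 genes passed the threshold in the test between valves, where the adjusted p was 0.9999 for Cnrip1 and Gen1.

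**Figure D5:**
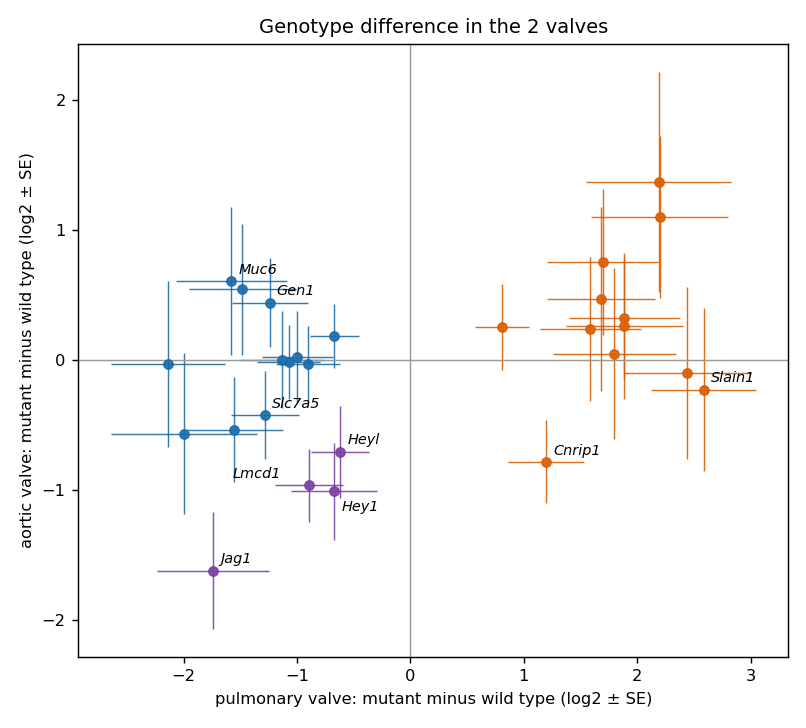
Mutant minus wild-type difference in log2(normalised count + 1) in the pulmonary valve (x axis) and the aortic valve (y axis) for the 12 higher genes (orange), the 12 lower genes (blue) and Jag1, Heyl, Hey1 and Lmcd1 (purple), with SE bars. The purple genes lie below 0 in both valves; the orange and blue genes were picked on the x axis and spread around 0 on the y axis, with Cnrip1 at -0.79.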

How the data were processed

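RNA from laser-cut valves was isolated with PicoPure columns and amplified with the Ovation V2 system before TruSeq library preparation, per the labels' protocols. Per the submitters' processing notes, the tools include RSEM 1.2.3, cutadapt 1.6, CASAVA 1.8.2 and FastQC, with no role or order given, and the genome build is GRCm38. The sources used here do not give the normalisation or any filter on low values. The authors deposited a normalised signal per gene and library, called normalised count here. In each library 100% of values were whole multiples of 1 step at a tolerance of 0.05 read, which gave the reads used for depth, edgeR 4.0.16 and DESeq2 1.42.0. RSEM estimates counts, so these may be rounded estimates, and near-identical gene copies share reads. Amplified reads without molecular identifiers are not independent molecules, so floors and counts cover counting error only.

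For the test, log2(value + 1) was fitted by limma 3.58.1 (R 4.3.3) with a mean-variance trend, 4 against 4 libraries, two-sided, with Benjamini-Hochberg adjustment over 13681 genes and a threshold of 0.05; 283 genes missed the filter. A pseudocount of 1 understates the change of low genes. The limma and edgeR tests were tried first on simulated counts. Those had the same dispersion for all genes and no litter, tissue or sex differences, so the trial does not cover such differences. The named genes were Jag1, the 12 genes per direction with the smallest limma p among those with 4 of 4 pair differences of one sign and no overlap, without predicted genes, pseudogenes and clone names, up to 4 members of each list by limma p, and defining cell type markers. Other genes were chosen after their values were seen. Members and lists were chosen with earlier results of these data known. Litter pairing comes from the labels; within pairs 1 to 4 the deviations from the group means correlated at 0.49, -0.04, 0.07 and 0.46. Alternatives were the litter block, other pseudocounts, filters and scalings, library weights, a muscle covariate, both count tests and leaving out each library or pair; the comparison of muscle-containing libraries alone was added after seeing the data. Promoter sequences are from RefSeq, GRCm38.p6.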

Additional observations from a re-analysis of the deposited data

Results flagged for a closer look

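Over 164 groups of 4 libraries, 19 had 1 library far from the other 3 by Dixon's test, and chance alone gives about 1 such group in 20. Values are log2(normalised count + 1). Of the 19, 8 concern the mean level of a gene list in library 1. In wild-type library 1 the mean level was lowest for the BMP pathway (3.75 against 4.66 to 4.82), for proteoglycans, hyaluronan and matricellular genes (5.35 against 6.05 to 6.19), for elastic fibre genes (4.76 against 6.197 to 6.263) and for matrix proteases and inhibitors (3.84 against 5.45 to 5.77). Mutant library 1 was lowest for the BMP pathway (4.10 against 4.77 to 4.82), the Wnt pathway (4.02 against 4.75 to 4.87) and guidance genes (4.23 against 4.89 to 5.02). It was also lowest for mitosis genes (5.91 against 6.10 to 6.13). Mutant library 4 was lowest for nuclear oxidative phosphorylation genes (6.08 against 6.47 to 6.52) and for skeletal muscle markers (0.54 against 4.78 to 5.35).

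The other 9 concern single genes. Wild-type library 3 was highest for Moap1, at 1.26 with the other 3 at 0, and for Dram1, at 4.39 against 3.35 to 3.51. Wild-type library 1 was highest for Anks1b, at 1.61 against 0 to 0.17, and for Nyap2, at 1.02 with the others at 0. Mutant library 1 was highest for Frrs1l, at 4.07 against 2.79 to 2.95, and for Nyap2, at 4.33 against 1.63 to 2.03. Mutant library 1 was lowest for Brd8, at 5.78 against 6.25 to 6.30, and for Prc1, at 5.87 against 6.19 to 6.25. Mutant library 2 was lowest for Cars, at 3.42 against 3.67 to 3.71.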

How the results depend on the processing

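The count of genes past the threshold was 0 in the reported comparison and in 22 of 26 alternatives, and 2 in the other 4. The 2 genes were Slain1 and Apoo-ps with DESeq2, and Rps2-ps10 and Gm9825 without wild-type replicate 2, without replicate 2 of both groups, and among muscle-containing libraries alone, so leaving out libraries gave 0 to 2. With the replicate block for litter, limma called 0 genes (smallest adjusted p 0.0963) and edgeR 0 (0.0578), so the block changed no such call. For Jag1, exchanging genotypes within litters, an alternative added after seeing the data, left the log2 difference at -1.74, and the exact permutation test gave p = 0.125, which that exchange cannot go below. Genes at an unadjusted p below 0.05 numbered 377 and moved by over 1.5 times in 9 alternatives. They numbered 798 with the replicate block in limma, 592 with it in edgeR, 1087 with library weights, 926 without wild-type replicate 1, 747 without mutant replicate 4 and 232 without mutant replicate 3. Without replicate 1, 2 or 3 of both groups they numbered 597, 244 and 209. Jag1 kept its direction in 26 alternatives, at -2.28 to -1.41 over those that leave out libraries. Named genes kept their direction in 1109 comparisons with an alternative. For genes picked with groups apart, leaving out libraries cannot reverse the sign, so those comparisons are no separate evidence. List medians moved by more than the SD of their 4 pair medians in 49 of 988 comparisons. That SD is large where the pairs disagree. Mitosis genes, for instance, counted as unmoved although their median went from -0.23 to 0.02 without wild-type library 1. The test between valves gave 0 genes in each of its 10 alternatives. At 4.56 to 8.27 M reads (megareads), genes with few reads, such as C5ar1 and Adam1a in mutants, are measured with little precision.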

Other observations

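A pair of ribosomal pseudogenes, Rps2-ps10 and Gm9825, chosen after their values were seen, had differences larger than those of the named genes. Rps2-ps10 was 2.90, 47.0, 1.62 and 2.20 in wild-type pulmonary libraries and 86.9, 95.6, 92.4 and 62.1 in mutants, a log2 difference of 3.74 with an SE of 0.76. Gm9825 was 0, 15.6, 0 and 0.489 in wild type against 30.7, 27.6, 24.9 and 29.9 in mutants, with a difference of 3.71 and an SE of 0.78. Wild-type library 2 stood between the other wild-type libraries and the mutants for both. Without it limma gave Rps2-ps10 an adjusted p of 0.000518 and Gm9825 one of 0.00285 (Benjamini-Hochberg). In the aortic valve the differences were 4.48 (SE 1.01) and 4.15 (SE 0.96). There wild-type library 4 lay near the mutants. It was 64.6 for Rps2-ps10, with mutants at 70.3 to 123, and 29.5 for Gm9825, with mutants at 37.0 to 54.6. The other wild-type aortic libraries were at 0 to 1.78. The parent gene Rps2 differed by -0.49 with an SE of 0.31, and how RSEM shared reads between it and its copies was not tested, nor were sequence differences between the embryos that change which reads align.

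The tested neighbours of Jag1 on chromosome 2, also chosen after their values were seen, had differences of both signs. Slx4ip, which ends just before Jag1 at 137071950, was higher in the mutant in all 4 pairs, with a difference of 0.62 and an SE of 0.56. Mkks differed by 0.18 (SE 0.50) and Btbd3 by 0.42 (SE 0.31). Ism1, a secreted protein, was 5.29, 3.87, 4.40 and 2.57 in wild type against 7.25, 8.46, 9.52 and 5.43 in mutants. Its groups did not overlap, with a difference of 0.79 and an SE of 0.41. Snap25, a protein of synaptic vesicle release, was at 106 in mutant library 1 and at 0 to 22.9 in the other 7 libraries. Tasp1, the farthest of these neighbours, was lower in all 4 pairs, by -0.48 with an SE of 0.39.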
